A study of Mus musculus with 10 samples.

Results

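The mRNAs of 32 lysosomal genes were followed in the lumbar spinal cord of mice that carried a human TARDBP transgene and of mice that did not. The genes were chosen by name, with earlier results of these data known. They encode hydrolases and the proteins that assist them, and membrane proteins and proton pump subunits of the lysosome. Tfeb, a transcription factor that controls many of the others, was included. All 32 were found among the 22024 identifiers of the count table and all passed the low-count filter, as did 15191 genes in total, with a smallest count of 83 in any library. The cord came from female mice aged 3 months. NTg animals (3; numbers 4, 5 and 6) were nontransgenic C57BL/6 mice, WT animals (2; numbers 8 and 10) carried a human genomic TARDBP BAC in the Rosa26 locus, and M337V animals (5; numbers 1, 2, 3, 7 and 9) carried the same BAC with the M337V mutation, a substitution found in amyotrophic lateral sclerosis. Each transgenic genotype was 1 isogenic line made from targeted embryonic stem cells and backcrossed to C57BL/6J, no change to the mouse Tardbp gene was described, controls were described as age-matched littermates, and the zygosity of single animals was not stated. Each library was polyadenylated RNA of 1 animal, so the p-values below measure the spread between animals.

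Libraries held 18724888 to 21041474 counts. Human TARDBP stood at 114 to 141 CPM (counts scaled to library size and composition) in the 7 transgenic libraries and at 1 and 4 counts in NTg 5 and NTg 6, but the library labelled NTg animal 4 held 2415 such counts (118 CPM). That library goes against its label. The label was kept, and the terms NTg and transgenic below follow the labels. Counts of calls among the lysosomal genes and some single-gene differences are also given without it. Medians, overlap counts, GC correlations and cell type genes are given only with it. Markers of cord tissue were present throughout: neuronal Snap25 stood at 2593 to 3420 CPM and motor neuron Chat at 19.6 to 34.0. WT 8 stood apart in caudal Hox genes, with a summed level of 22.1 CPM and Hoxd11 and Hoxa11 at 0. The sum was 237 in WT 10 and 196 to 245 in NTg. M337V 3 was also low, at 40.8 beside 139 to 192 in the other M337V libraries. In Schwann cell genes WT 8 stood at 198 CPM against 391 in WT 10, and M337V 3 was the highest M337V library, at 1689.

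Lysosomes are acidic organelles in which hydrolases break down proteins, lipids, glycogen and the sugar chains of glycoproteins and proteoglycans delivered by endocytosis and autophagy. Most of the soluble enzymes are tagged with mannose phosphate in the Golgi and carried to the lysosome by receptors, and a V-type ATPase pumps in the protons that they need. Loss of single enzymes causes storage disorders, many of which damage the nervous system. Tfeb and its relatives bind E-box sequences of the core CACGTG in the promoters of many of these genes, in a setting known as the CLEAR motif.

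Promoter windows were searched for this core. RefSeq windows of 300 bases, 250 before to 50 after a start site (GRCm38.p6), were matched for 28 of the 32 genes, with none for Ctsb, Galns, Npc1 or Atp6v1h. The core CACGTG, which reads the same on both strands, occurred in 12 of the 28 (42.9%), against 8.09% of 27025 genes with such a window. The 12 were Atp6v0d1, Ctsa, Ctsd, Ctsf, Ctsl, Gaa, Gla, Glb1, Lamp1, Mcoln1, Naglu and Sgsh. The longer palindrome TCACGTGA, which contains the core, occurred in 5 (Atp6v0d1, Ctsa, Ctsd, Gla and Mcoln1), or 17.9% against 1.12% of all genes. Windows of 4 genes are shown as the 250 bases before the start, 5′ to 3′, with each CACGTG in capitals: Gaa (chr11:119267713-119267962, plus strand), which gave the only called difference among the 32 (1 of 32 for M337V against NTg, beside 4.29% of all genes), Lamp1 (chr8:13158911-13159160, plus strand), which holds 4 cores, Gla (chrX:134601006-134601255, minus strand), which holds 2 copies of TCACGTGA, and Npc2 (chr12:84773113-84773362, minus strand), which holds no core.
Gaa: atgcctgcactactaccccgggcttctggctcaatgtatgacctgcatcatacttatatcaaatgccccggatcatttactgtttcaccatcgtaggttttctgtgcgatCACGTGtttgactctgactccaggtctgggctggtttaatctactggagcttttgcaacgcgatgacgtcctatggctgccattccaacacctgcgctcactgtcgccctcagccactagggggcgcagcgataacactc
Lamp1: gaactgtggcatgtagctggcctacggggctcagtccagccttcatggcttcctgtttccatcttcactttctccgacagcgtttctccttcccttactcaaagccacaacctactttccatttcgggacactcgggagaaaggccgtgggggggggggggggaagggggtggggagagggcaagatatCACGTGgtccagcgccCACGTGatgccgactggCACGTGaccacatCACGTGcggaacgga
Gla: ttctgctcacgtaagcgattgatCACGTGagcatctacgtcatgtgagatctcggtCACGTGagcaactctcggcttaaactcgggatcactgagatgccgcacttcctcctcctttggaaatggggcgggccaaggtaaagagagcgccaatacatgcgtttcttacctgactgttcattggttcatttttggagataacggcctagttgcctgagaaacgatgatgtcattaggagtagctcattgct
Npc2: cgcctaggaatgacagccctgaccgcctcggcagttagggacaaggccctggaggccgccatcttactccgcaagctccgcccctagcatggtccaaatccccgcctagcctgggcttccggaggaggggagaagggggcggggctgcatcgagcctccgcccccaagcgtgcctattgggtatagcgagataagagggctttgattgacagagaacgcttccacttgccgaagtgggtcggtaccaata
In Lamp1 the 4 cores began 61, 45, 28 and 15 bases before the start, in Gaa the single core began 140 bases before it, and in Gla they began 227 and 194 bases before it. A match describes the letters of a window and not a bound site. The median log2 difference between M337V and NTg was -0.07 for the 12 genes with the core and 0.02 for the 16 without it, and between WT and NTg it was -0.05 and 0.09. The trend over GC content given below was not removed from these medians, and whether the core took part in the differences was not tested.

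The lysosomal mRNAs took up 0.558 to 0.617% of all counts in each library, a summed level of 5639 to 6092 CPM. Per kilobase of exon, Psap stood highest, at a mean of 597 CPM per kilobase over the 10 libraries. Psap encodes prosaposin, the precursor of the saposins that present sphingolipids to their hydrolases. Lamp1 followed at 248, Ctsd at 181, Ctsb at 114 and Atp6v0d1 at 100 CPM per kilobase. The lowest levels per kilobase were those of Galns (2.21), Manba (2.87), Sgsh (3.05), Galc (3.35) and Naglu (3.35). Length here was that of all annotated exons of a gene merged, so the ranking depends on annotation. For Galc it was 14879 bases, at a mean of 49.8 CPM. The spread across animals was small for most of these genes. The coefficient of variation over the 10 libraries had a median of 6.76% (2.17% for Ctsd to 20.1% for Galns), beside a median of 9.67% over all genes tested, with no allowance for level. After Galns came Gaa (17.0%), Ppt1 (16.1%), Man2b1 and Naglu (12% each).

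**Figure D1:**
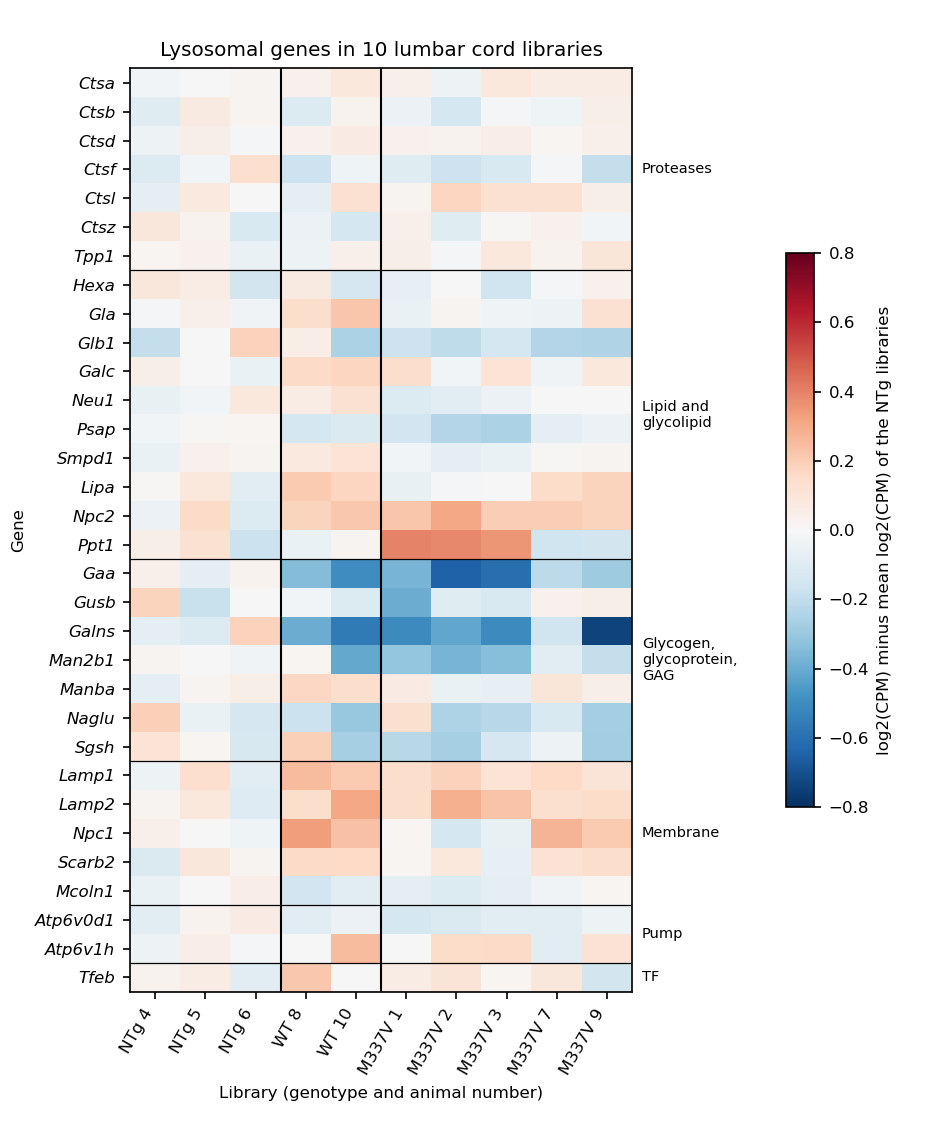
Colours give log2 CPM in each library (columns, by genotype and animal number) minus the mean log2 CPM of the 3 NTg libraries, for the 32 lysosomal genes (rows, by role). Gaa and Galns are below the NTg mean in every WT and M337V library, and Ppt1 is above it in M337V 1, 2 and 3 but below it in M337V 7 and 9.

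The proteases differed little between animals. Ctsd, the main aspartic protease of the lysosome, stood at 406, 433 and 415 CPM in NTg, 428 and 438 in WT and 427, 425, 433, 423 and 429 in M337V. The groups overlapped, and no genotype stood apart. Ctsb, Ctsl, Ctsf and Ctsz encode cysteine cathepsins, Ctsa a carboxypeptidase that also protects Neu1 and Glb1 in a complex, and Tpp1 a serine peptidase lost in a childhood ceroid lipofuscinosis. Their log2 differences between M337V and NTg lay between -0.12 (Ctsf) and 0.10 (Ctsl), and those between WT and NTg between -0.10 (Ctsf) and 0.06 (Ctsa). None of the 7 proteases reached an unadjusted p below 0.05 in any of the 3 comparisons.

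Of the 10 genes of lipid and glycolipid turnover, Psap (chr10:60277627-60302597, plus strand, GRCm38 as for all gene positions here) and Npc2 (chr12:84754562-84773152, minus strand) separated M337V from NTg. Psap stood at 1726, 1763 and 1776 CPM in NTg, 1595 and 1620 in WT and 1578, 1495, 1470, 1663 and 1698 in M337V. Every transgenic library was below every NTg library, with M337V 7 and M337V 9 closest to them. The log2 difference was -0.15 ± 0.06 (SE) between M337V and NTg and did not pass the test (edgeR adjusted p = 0.122). In bulk cord RNA, here and below, fewer cells of a type and less mRNA per cell cannot be told apart. The share of all genes that separate every transgenic from every NTg library is also not given, here or below. Npc2, the soluble protein that hands cholesterol from the lysosomal lumen to Npc1, stood at 116, 134 and 112 CPM in NTg, 136 and 140 in WT and 140, 149, 138, 138 and 136 in M337V. All 7 transgenic values exceeded the NTg values, although NTg 5 lay within 3 CPM of the lowest of them. The log2 difference of Npc2 was 0.22 ± 0.06 for M337V against NTg (adjusted p = 0.0598) and 0.19 ± 0.07 for WT against NTg (adjusted p = 0.131). It passed the threshold without NTg 5 in both comparisons (adjusted p = 0.0348 and 0.0434), and had an adjusted p of 0.158 and 0.264 without NTg 4.

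Ppt1, the thioesterase that removes palmitate from proteins, split the M337V animals. The gene lies at chr4:122836242-122859175 on the plus strand. Its level was 156, 164 and 134 CPM in NTg, with 145 and 153 in WT. In M337V animals 1, 2 and 3 it stood at 198, 196 and 192 CPM, above every other library, and in M337V 7 and 9 at 135 and 136, near the lowest NTg value. The mean in M337V was 171 ± 33.0 CPM (SD, n = 5) against 151 ± 15.7 in NTg (n = 3), and the log2 difference was 0.18 ± 0.14 (adjusted p = 0.443). With M337V 7 and 9 as the only M337V libraries it was -0.15 ± 0.08 (adjusted p = 0.490), the opposite sign. The library names of M337V 1 to 3 come from another stretch of numbers than those of the other animals, and the labels name no batch. Whether a difference in library preparation took part was not tested. Psap, Gaa, Lipa and Npc1 also lay apart in these animals, with M337V 7 and 9 above M337V 1 to 3. The same held for Neu1, Smpd1, Gusb, Man2b1, Scarb2, Mcoln1 and Atp6v0d1. Lipa, which encodes lysosomal acid lipase, stood at 44.0 and 44.8 CPM in M337V 7 and 9 beside 38.1 to 39.6 in M337V 1 to 3. The share of all genes that split in this way is not given here. Ppt1 shares 129 exon bases with Cap1 on the opposite strand in GENCODE M21, and whether counting used the strand is not given in the sources used here.

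Glb1, Gla, Galc, Neu1 and Hexa remove sugars from glycolipids, and Smpd1 removes phosphocholine from sphingomyelin. Glb1, lysosomal beta-galactosidase, stood at 17.0, 19.5 and 22.1 CPM in NTg, 20.2 and 16.3 in WT and 17.3, 16.8, 17.6, 16.5 and 16.5 in M337V. The M337V values were narrowly grouped and overlapped NTg 4, and the log2 difference was -0.21 ± 0.09 (adjusted p = 0.196). Gla, alpha-galactosidase A, was highest in the WT animals, at 26.4 and 27.8 CPM beside 23.5 to 24.5 in NTg and 23.0 to 26.0 in M337V. The WT libraries lay above all others, by a log2 difference of 0.18 ± 0.07 over NTg (adjusted p = 0.151). Galc, which degrades the galactosylceramide of myelin, stood at 53.0 and 53.6 CPM in WT, 46.0 to 49.3 in NTg and 46.8 to 52.6 in M337V. Galc again had its highest values in the WT animals. Hexa, Neu1 and Smpd1 had log2 differences between -0.05 and -0.03 for M337V against NTg.

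The 7 genes of glycogen, glycoprotein and glycosaminoglycan turnover held the difference that passed the test. Gaa encodes acid alpha-glucosidase, which degrades glycogen in the lysosome and is deficient in Pompe disease. It lies at chr11:119267887-119285454 on the plus strand. Gaa stood at 368, 341 and 366 CPM in NTg, 282 and 254 in WT and 276, 229, 236, 310 and 295 in M337V. Every transgenic library was below every library labelled NTg, and the WT values fell inside the M337V range. The highest value was that of NTg 4, whose human TARDBP RNA was at the transgenic level. The mean was 359 ± 15.1 CPM (SD, n = 3) in NTg, 268 ± 20.1 (n = 2) in WT and 269 ± 35.8 (n = 5) in M337V. In M337V Gaa fell by 0.41 ± 0.09 (SE) on the log2 scale against NTg, with a 95% interval of -0.62 to -0.21 (edgeR quasi-likelihood adjusted p = 0.0368). The difference was negative under all 19 alternatives, from -0.46 to -0.24, and passed the threshold under 10 of them. It was smallest in size, at -0.24, with M337V 7 and 9 as the only M337V libraries. Gaa stood higher in these 2 animals than in M337V 1, 2 and 3. The call was lost in that fit, which called 0.0198% of all genes. Without the library labelled NTg 4 it was -0.39 ± 0.11 (adjusted p = 0.0966), and the call was also lost without NTg 5 (0.0628), NTg 6 (0.179), M337V 1 (0.0566), M337V 2 (0.0737) or M337V 3 (0.0716). For WT against NTg the log2 difference of Gaa was -0.42 ± 0.12 (adjusted p = 0.0582), and between M337V and WT it was 0.01 ± 0.11, with an interval of -0.23 to 0.24.

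Galns (chr8:122578242-122611463, minus strand), a sulfatase of keratan and chondroitin sulfate, had the same order of groups at a far lower level. Its values were 6.86, 6.70 and 8.19 CPM in NTg, 5.49 and 4.87 in WT and 5.06, 5.42, 5.07, 6.46 and 4.31 in M337V. All transgenic libraries were again below all NTg libraries, with a gap of less than 1 CPM between M337V 7 and NTg 5. The log2 difference was -0.46 ± 0.14 for M337V against NTg (adjusted p = 0.0718) and -0.49 ± 0.18 for WT against NTg (adjusted p = 0.111). Man2b1, lysosomal alpha-mannosidase, stood at 49.8, 49.0 and 48.1 CPM in NTg, 49.5 and 36.9 in WT and 39.4, 37.9, 38.7, 46.1 and 42.9 in M337V. The M337V animals were all below NTg, while WT 8 was at the NTg level and WT 10 was the lowest of the 10 libraries. Its log2 difference for M337V against NTg was -0.26 ± 0.09 (adjusted p = 0.114), and it passed the threshold when either WT library was left out of the shared fit (adjusted p = 0.0484 without WT 8 and 0.0487 without WT 10). Gusb, Naglu and Sgsh, which degrade glucuronides and heparan sulfate, had log2 differences of -0.11, -0.15 and -0.19, and Manba, beta-mannosidase, of 0.02. The median of the 7 genes was -0.19 for M337V against NTg and -0.18 for WT against NTg, beside -0.01 and -0.02 over all genes tested. These medians were taken without removing the trend over GC content that is given below. Their summed level, of which Gaa was the greater part, was 456 to 490 CPM in NTg, 353 and 402 in WT and 328 to 425 in M337V.

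**Figure D2:**
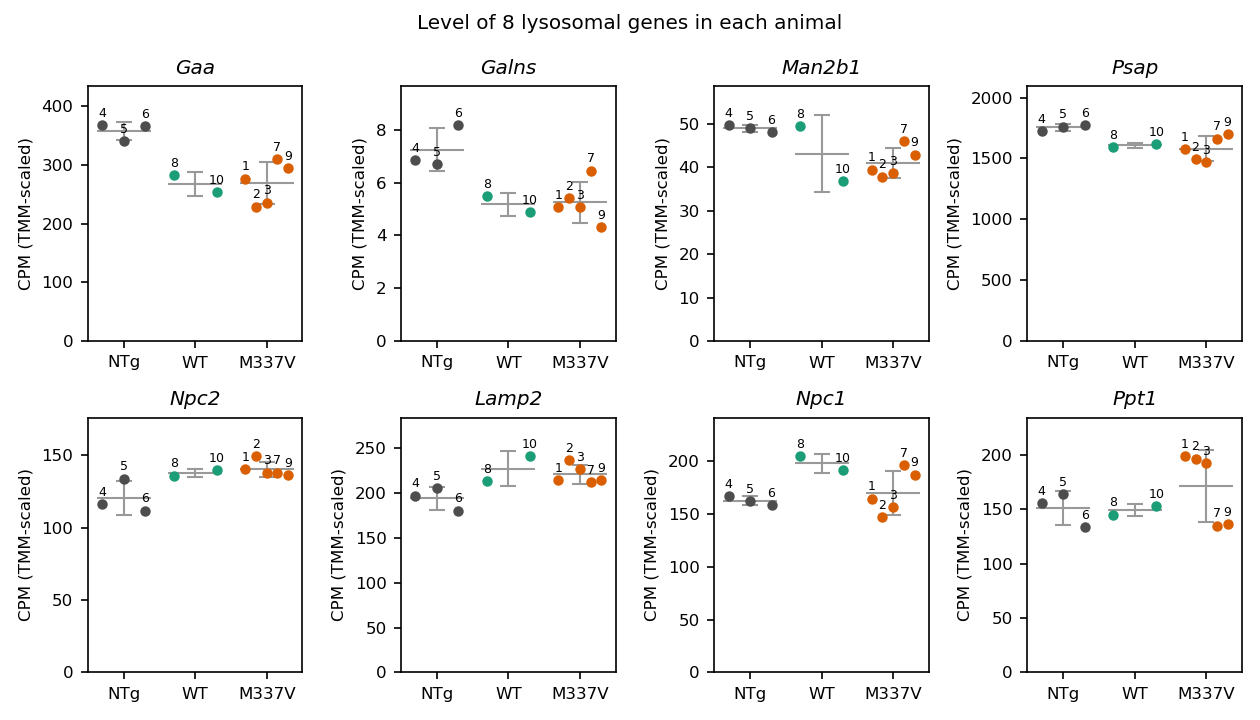
Each point is 1 animal, labelled by its number, with CPM on the vertical axis from 0, and the bars give the mean and SD of each genotype. Gaa, Galns and Psap were lower in all 7 transgenic animals than in all 3 NTg animals and Npc2 and Lamp2 were higher. The share of all genes that separate these animals in this way is not given. Ppt1 separated M337V 1, 2 and 3 from M337V 7 and 9.

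Among the 5 membrane proteins, Lamp1 (chr8:13159161-13175338, plus strand) and Lamp2 (chrX:38401357-38456454, minus strand), the heavily glycosylated proteins that line the lysosomal membrane, were higher on average in both transgenic genotypes without passing the test. Lamp2 stood at 197, 206 and 181 CPM in NTg, 214 and 241 in WT and 214, 236, 227, 212 and 215 in M337V. All transgenic values exceeded all NTg values. The log2 difference of Lamp2 was 0.18 ± 0.06 for M337V against NTg (adjusted p = 0.0922) and 0.23 ± 0.07 for WT against NTg (adjusted p = 0.0889). Lamp1 stood at 593, 669 and 573 CPM in NTg, 727 and 704 in WT and 672, 692, 659, 680 and 656 in M337V. NTg 5 overlapped the M337V range, and both WT values were above all others. The log2 difference of Lamp1 was 0.14 ± 0.05 for M337V against NTg (adjusted p = 0.146) and 0.23 ± 0.07 for WT against NTg (adjusted p = 0.0645).

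Npc1, the membrane protein that exports cholesterol from the lysosome, stood at 167, 162 and 158 CPM in NTg, 205 and 191 in WT and 165, 147, 156, 196 and 188 in M337V. The high libraries were WT 8, WT 10, M337V 7 and M337V 9. The log2 difference was 0.29 ± 0.10 for WT against NTg (adjusted p = 0.117) and -0.22 ± 0.10 for M337V against WT (adjusted p = 0.743). Npc1 shares 511 exon bases with Rmc1 on the opposite strand, and 11 of the 32 genes share exon bases with another protein-coding gene in GENCODE M21, among them Lamp1 (249 bases, Grtp1, opposite strand) and Ctsd (808 bases, Gm49369, same strand). Scarb2, the receptor that carries beta-glucocerebrosidase to lysosomes, had log2 differences of 0.06 for M337V and 0.15 for WT against NTg. Mcoln1, a cation channel that releases lysosomal calcium, had -0.05 and -0.12. Of the proton pump subunits, Atp6v0d1 had log2 differences of -0.09 and -0.07, and Atp6v1h of 0.07 and 0.13. Tfeb itself stood at 19.6, 20.05 and 18.1 CPM in NTg, 22.3 and 19.1 in WT and 20, 20.6, 19.4, 20.5 and 17.4 in M337V. The groups overlapped, and the log2 difference of 0.03 ± 0.08 for M337V against NTg had an interval of -0.15 to 0.20 (adjusted p = 0.874).

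Across the whole set, M337V against NTg gave 1 called gene of 32, Gaa, beside 4.29% of all genes tested (1.61% lower and 2.67% higher). At an unadjusted p below 0.05 there were 8 (25%, beside 24.5% of all genes, 12.2% higher and 12.3% lower): Gaa, Galns, Man2b1, Psap and Glb1 lower, and Npc2, Lamp2 and Lamp1 higher. The libraries of the groups did not overlap for 6 of 32 (18.8%, beside 18.1% of all genes), 2 higher and 4 lower, where 9.51% and 8.61% of all genes were. Without the library labelled NTg 4 the count of calls was 0, where 1.3% of all genes were called. The adjusted p was then 0.131 for Galns, 0.165 for Lamp2, 0.225 for Psap and 0.256 for Man2b1. The shares over the 32 were near those of all genes, and the median log2 difference of the 32 was 0.00 beside -0.01. The median size of the difference, whatever its sign, was 0.07 for the 32 and 0.12 for all genes. The 95% interval lay within a 1.5-fold change in either direction for 30 of the 32, all but Gaa and Galns.

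WT against NTg, which uses the same 3 NTg libraries, gave 0 called genes of 32 by edgeR, beside 5.64% of all genes (3.59% higher and 2.05% lower). Limma-voom called 0 of the 32, beside 1.42% of all genes, and DESeq2 called 3 (Gaa lower, Lamp1 and Lamp2 higher), beside 9.29%. At an unadjusted p below 0.05 edgeR gave 9 (28.1%, beside 25.3% of all genes, 12.8% higher and 12.5% lower): Gaa and Galns lower, and Gla, Galc, Lipa, Npc2, Lamp1, Lamp2 and Npc1 higher. The groups did not overlap for 16 of 32 (50%, 11 higher and 5 lower), in a comparison of 2 against 3 libraries where 41.7% of all genes did not overlap (19.6% higher and 22.1% lower). Without WT 8, which stood apart in its Hox genes, Gaa was -0.50 ± 0.15 (adjusted p = 0.0901), Lamp2 0.31 ± 0.09 (0.0701) and Lamp1 0.20 ± 0.08 (0.171), and without the library labelled NTg 4 the adjusted p-values were 0.135, 0.148 and 0.149.

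**Figure D3:**
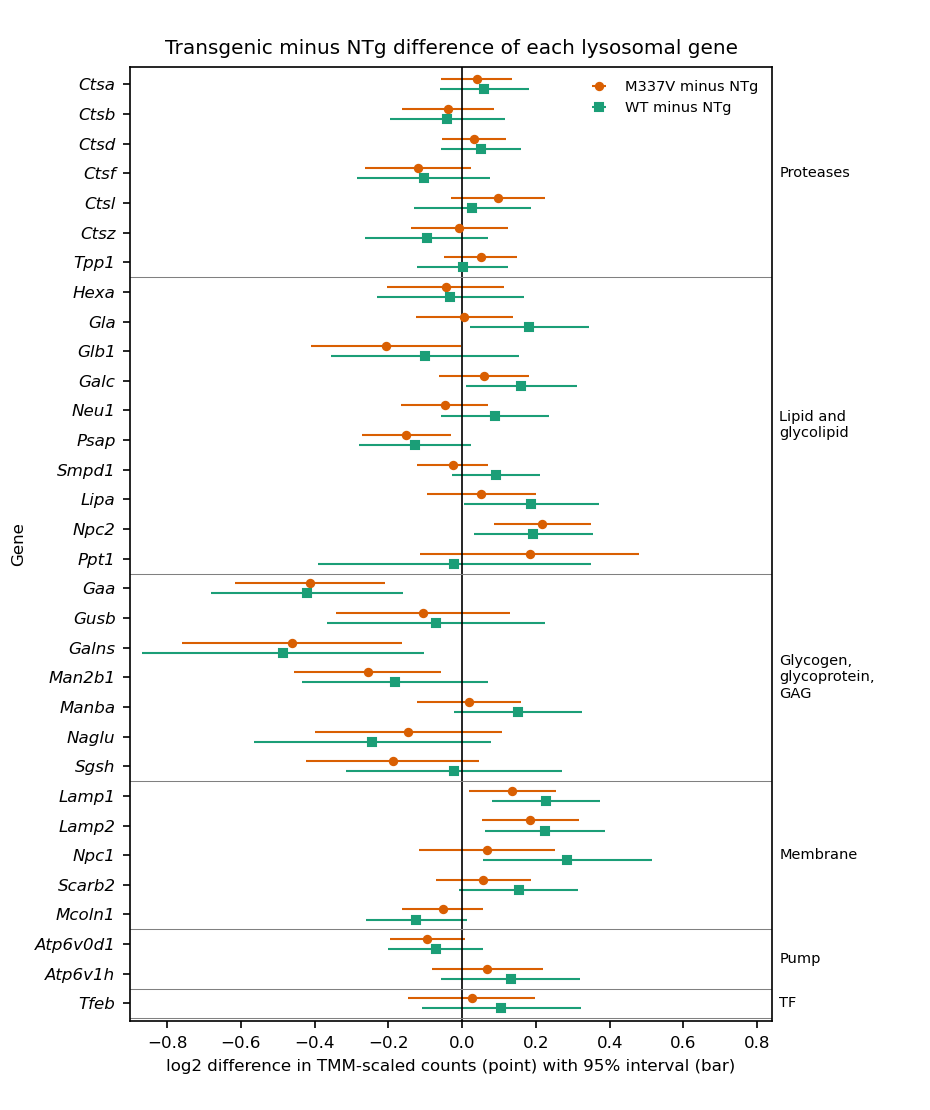
Points give the log2 difference of each lysosomal gene from NTg, in M337V (circles) and in WT (squares), and bars the 95% interval from the edgeR fit. Both sets of points share the 3 NTg libraries. Gaa and Galns lie farthest to the left in both, and the intervals of Ppt1, Galns and Naglu are among the wide ones.

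M337V against WT, the comparison of the mutant with the wild-type transgene, gave 0 called genes of 32 by edgeR, DESeq2 and limma-voom, where edgeR and limma-voom called 0% of all genes and DESeq2 0.156%. At an unadjusted p below 0.05 there were 4, all lower in M337V (12.5%, beside 6.66% of all genes, 3.55% higher and 3.11% lower): Gla (log2 difference -0.18 ± 0.07), Npc1 (-0.22 ± 0.10), Neu1 (-0.14 ± 0.06) and Smpd1 (-0.12 ± 0.05). The groups did not overlap for 7 of 32, all lower in M337V (21.9%, beside 9.5% of all genes, 4.85% higher and 4.65% lower): Gla, Galc, Neu1, Smpd1, Manba, Lamp1 and Scarb2. Of the genes named here, Npc1, Neu1, Smpd1 and Scarb2 had M337V 7 and 9 above M337V 1 to 3. Gla, Galc, Manba and Lamp1 did not. Over the 19 alternatives the difference ran from -0.28 to -0.05 for Npc1 and from -0.18 to -0.09 for Neu1. For Smpd1 it ran from -0.16 to -0.08 and for Gla from -0.21 to -0.14. With M337V 7 and 9 as the only M337V libraries, 25 of the 32 genes kept their sign. Whether library preparation took part was not tested. All 32 intervals lay within a 1.5-fold change in either direction, and the median log2 difference was -0.03.

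The size and sign of the differences went with the base composition of the mRNAs. Over the 32 genes, Pearson's r between GC content of the longest transcript and the log2 difference was -0.55 for M337V against NTg and -0.56 for WT against NTg, against -0.21 and -0.22 over all genes. These are descriptions over genes measured in the same libraries. Of the 16 genes above the median GC content of 51.9%, 13 were below 0 for M337V against NTg (median -0.10), and of the 16 at or below it, 3 were (median 0.06). Gaa has a GC content of 59.5%, Galns of 55.6% and Lamp2 of 38.7%. With the trends over GC content and length of all genes removed, a setting added after the data were seen, r was 0.01 and 0.08. Gaa then had a log2 difference of -0.26 ± 0.07 (adjusted p = 0.0720) and Lamp2 of 0.05 ± 0.05 (0.678). Of the other genes of glycogen, glycoprotein and glycosaminoglycan turnover, Galns had -0.34, Man2b1 -0.13, Sgsh -0.05, Gusb -0.01, Naglu -0.01 and Manba 0.05. Npc2 had 0.30 ± 0.07 and passed the threshold (0.0410), and Lamp1 had 0.21 ± 0.05 (0.0630). For WT against NTg the same setting called Lamp1 (0.33 ± 0.07, adjusted p = 0.0187), Smpd1 (0.27, 0.0228) and Ctsd (0.23, 0.0331), all higher, and Gaa had -0.22 ± 0.09 (0.174). In WT, Galns then had -0.31, Naglu -0.05, Man2b1 -0.04, Gusb 0.05, Sgsh 0.15 and Manba 0.18. In all, 21 of the 32 genes had the same sign for M337V against NTg under both settings, Gaa, Galns, Npc2 and Lamp1 among them.

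**Figure D4:**
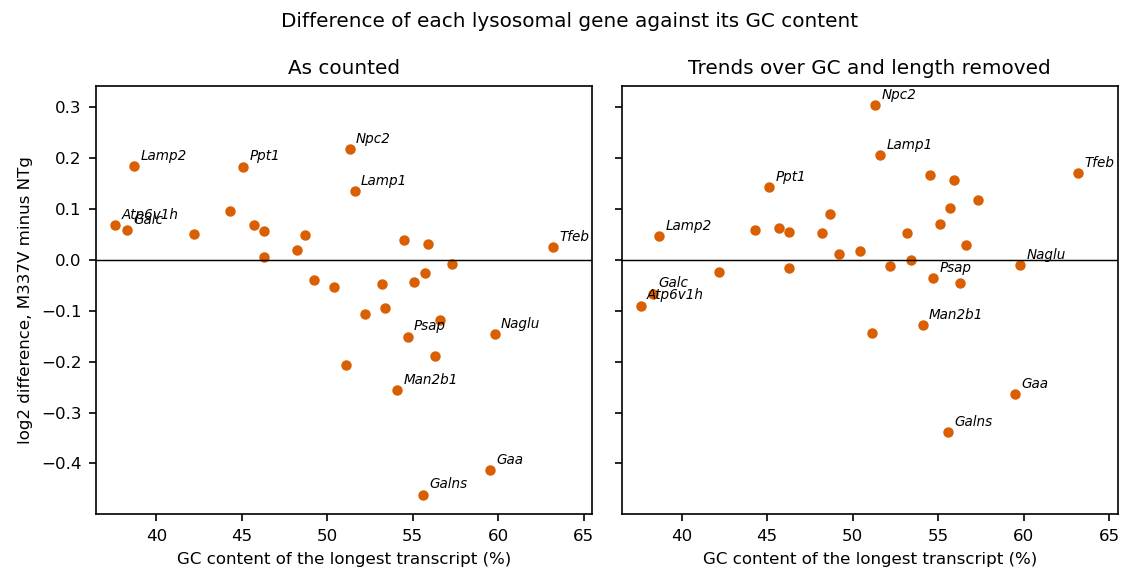
Each point is a lysosomal gene, with GC content of its longest transcript (percent) on the horizontal axis and the log2 difference of M337V from NTg on the vertical axis, as counted (left) and with trends over GC content and length of all genes removed (right). On the left 13 of the 16 genes above 51.9% GC lie below 0, on the right 8 of 16 do, and Gaa and Galns remain the lowest points in both.

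Genes beyond the 32 were taken from 6 lists of 150 lysosomal and autophagy genes, of which 147 were tested. For M337V against NTg 5 of the 147 were higher and 2 lower, and for WT against NTg 6 were higher and 0 lower, beside 4.29% and 5.64% of all genes called. DESeq2 called 23 and 18 of the 147, where it called 8.07% and 9.29% of all genes, and limma-voom 23 and 2, where it called 8.66% and 1.42%. For M337V against WT edgeR, DESeq2 and limma-voom each called 0, and 3 had an unadjusted p below 0.05 in edgeR, beside 6.66% of all genes. Among 33 other soluble lysosomal proteins, Ctss, the cathepsin of antigen-presenting cells and microglia, rose in M337V from 78.5 ± 11.5 CPM in NTg (68.0 to 90.8) to 103 ± 5.49 (97.2 to 109), by 0.39 ± 0.08 on the log2 scale (adjusted p = 0.0302). Plbd2 fell by 0.25 ± 0.06 (0.0397). Among 29 other membrane proteins, Tmem106b, a lysosomal protein known as a risk locus of frontotemporal dementia, rose from 260 ± 10.2 CPM in NTg to 308 ± 11.4 in M337V (log2 difference 0.25 ± 0.05, adjusted p = 0.0285) and to 316 ± 22.0 in WT (0.28 ± 0.06, 0.0286). Cd164 rose in WT by 0.34 ± 0.08 (0.0401).

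None of the 17 other V-ATPase subunits was called by edgeR in any comparison. At an unadjusted p below 0.05 edgeR gave 4 for M337V and 3 for WT against NTg and 0 between the transgenic genotypes. Of all genes, 24.5%, 25.3% and 6.66% were below it. DESeq2 called 2, 1 and 0, and limma-voom called 1, 0 and 0, beside the shares of all genes given above for these 2 tools. Of 18 genes of enzyme targeting, Sumf1, which activates the sulfatases, rose in WT by 0.33 ± 0.08 (adjusted p = 0.0349). Of 23 genes that control Tfeb or the kinase complex above it, Fnip1, a partner of folliculin, rose in M337V by 0.25 ± 0.06 (0.0335) and in WT by 0.34 ± 0.07 (0.0219). Ppp3cb, a catalytic subunit of calcineurin, rose in M337V by 0.16 ± 0.04 (0.0470), and Mitf, a relative of Tfeb, rose in WT by 0.45 ± 0.10 (0.0242). Of 27 autophagy genes, Atg3 rose in M337V by 0.23 ± 0.05 (0.0391) and in WT by 0.27 ± 0.07 (0.0410), and Vps18, a subunit of the tethering complexes of late endosomes, fell in M337V by 0.32 ± 0.06 (0.0260). These 13 calls concern 10 genes. Each passed in 3 to 7 of the 10 fits that left out 1 library. Without NTg 6 none of the 13 passed, in fits that called 0.0132% of all genes for M337V and 0.291% for WT against NTg. Without the library labelled NTg 4 only Fnip1 and Mitf in WT did (2 of 13), where 1.3% and 1.87% of all genes were called, and with the GC and length trends removed 3 did: Ctss in M337V, and Mitf and Sumf1 in WT.

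Other cell types varied between the same groups. Of the oligodendrocyte genes, Ermn stood at 280 to 358 CPM in NTg, 537 and 570 in WT and 453 to 586 in M337V, and rose against NTg in M337V (log2 difference 0.65 ± 0.09, adjusted p = 0.0122) and in WT (0.79 ± 0.11, 0.00957). Ugt8a, an enzyme of galactosylceramide synthesis, stood at 279 to 408 CPM in NTg, 559 and 643 in WT and 497 to 608 in M337V, and rose in both (0.66 ± 0.11, adjusted p = 0.0182, and 0.80 ± 0.13, 0.0123). Of 15 microglial markers, which include P2ry12 (23.0 to 29.8 CPM in NTg, 39.0 and 40.0 in WT and 35.9 to 45.1 in M337V), 2 rose in each genotype. Of all genes, 2.67% rose in M337V and 3.59% in WT. The microglial sum was 353 to 416 CPM in NTg, 443 and 470 in WT and 439 to 478 in M337V. Neutrophil genes went the other way, with a sum of 487 CPM in NTg 4, 144 in NTg 5, 229 in NTg 6, 26.3 and 89.4 in WT and 48.3 to 126 in M337V. In M337V 6 of 8 fell and in WT 5 of 8, beside 1.61% and 2.05% of all genes. None of the microglial and neutrophil markers was at 0 in any library. Skeletal muscle genes summed to 103 to 682 CPM in NTg, 412 in WT 8, 14.2 in WT 10 and 15.3 to 110 in M337V, with none at 0. Of these, 2 of 7 fell in M337V, beside 1.61% of all genes: Myh2 (-3.05 ± 0.76, adjusted p = 0.0464) and Mb (-2.67 ± 0.67, 0.0468). Schwann cell genes summed to 545 to 2323 CPM in NTg (highest in NTg 4), 198 and 391 in WT and 305 to 1689 in M337V. Of them 0 of 7 were called by edgeR against NTg, beside 4.29% of all genes for M337V and 5.64% for WT. At an unadjusted p below 0.05 there were 0 in M337V and 4 in WT, beside 24.5% and 25.3% of all genes. Lysosomal genes are expressed in all of these cells at different levels, and the part of cell composition in the differences of Gaa, Npc2, Lamp2 or Ctss was not tested.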

How the data were processed

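Per the labels, lumbar cord RNA (RIN above 8) was made into stranded polyadenylated libraries and sequenced in pairs. The deposited values are raw read counts of each gene in each library, as whole numbers. Tools in the submitters' processing notes, listed with no role, are Subread 1.4.6 with featureCounts, STAR 2.4.2a, Salmon 0.8.2, Trimmomatic 0.32, Picard 2.6.0, FastQC 0.11.2 and DESeq2 1.14.1. Genome build, annotation and strand setting: not given in the sources used here. Of 22024 identifiers, 21774 were named from GENCODE M21 (GRCm38).

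Counts were fitted with edgeR 4.0.16 (R 4.3.3): filterByExpr (minimum count 10, total 15), TMM scaling, 1 quasi-likelihood model of the 3 genotypes over 10 libraries, and Benjamini-Hochberg adjusted p below 0.05 over 15191 genes. CPM are TMM-scaled relative counts over the genes tested. DESeq2 1.42.0, limma-voom (limma 3.58.1), RLE factors, other filters, a fit of the compared genotypes alone, left-out libraries and removal of GC and length trends were alternatives. The scripts were tested on simulated data. All 32 genes may be named, and of each other list up to 3 called genes per direction by smallest p. The 32 genes and the lists were chosen with earlier results of these data known. The values of 1 gene of the marker lists, and the sum and count of its list, are not reported here.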

Additional observations from a re-analysis of the deposited data

How the results depend on the processing

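No paired analysis was made: each animal has 1 genotype, and the sample labels used here give no litter, so litter was not modelled. The count of called genes among the 32 for M337V against NTg, 1 as reported, was 3 with DESeq2 (Gaa, Lamp2 and Npc2, where 8.07% of all genes were called), 2 with limma-voom (Gaa and Galns, 8.66%), 0 without both NTg 4 and WT 8 (2.96%), 0 with M337V 7 and 9 as the only M337V libraries (0.0198%), and 0 to 2 when each library was left out in turn. It was 0 without NTg 4 (1.3% of all genes), NTg 6 (0.0132%), M337V 1 (3.06%), M337V 2 (0.349%) or M337V 3 (1.06%), so fewer genes of any kind passed in these fits than the 4.29% reported. Without NTg 5, and with GC and length trends removed, the 1 call was Npc2 and not Gaa. For WT against NTg the count, 0 as reported, was 3 with DESeq2 (9.29% of all genes), 1 with the fit of the compared genotypes alone (Gaa, adjusted p = 0.0453, 1.72%), 3 with GC and length trends removed (5.1%), and 0 to 2 when each library was left out, with 2 (Lamp1 and Npc2) without NTg 5 and 1 (Gaa) without M337V 2, M337V 3 or M337V 7. For M337V against WT it was 0 under all 19 alternatives. Of the single-gene differences with an unadjusted p below 0.05, no sign was reversed under these alternatives: 363 values kept their side of the threshold, 18 moved past it and 9 lost it, all 9 of them Gaa in M337V. With M337V 7 and 9 alone, 23 of the 32 genes kept their sign against NTg. Groups of 2 and 3 animals and counts of 83 upward limit the precision, most of all for Galns.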
